A study of Mchenga conophoros and Petrotilapia sp. 'chitimba' with 16 samples.

Results

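The nuclear genes of the mitochondrial ribosome, of mitochondrial protein import and of the mitochondrial carriers were followed through the brains of 2 cichlid species. The rule that picked them uses names and no measured value, though it was set with earlier results of these data known. It takes the loci that match an annotated gene and whose symbol begins with mrpl or mrps and a digit, with timm or tomm, or with slc25a. Of 61384 assembled loci, 30487 matched an annotated gene, and 104 of these met the rule: 63 genes of the mitochondrial ribosome, 17 import genes and 24 carriers. Of the 104, 101 passed the filter on low counts in total RNA; slc25a16, slc25a44 and slc25a45 did not.

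The samples were whole brains of 8 adult males, 4 Mchenga conophoros (MC) and, as the other species, 4 Petrotilapia sp. 'chitimba' (PC); per the series' design text the species differ in mirror-elicited aggression. Of the 4 males of a species, 2 met a mirror in their home tank for 15 min and 2 had a control condition, and 90 min passed before the brains were taken. Every brain was the source of 2 libraries, input from total RNA and IP from RNA that came down in an immunoprecipitation of ribosomes that carry phosphorylated ribosomal protein S6, a method called PhosphoTRAP that is used to enrich transcripts of recently active neurons. The MC control fish were 10 and 22, the MC mirror fish 9 and 21, the PC control fish 11 and 24 and the PC mirror fish 12 and 23, and each of 2 processing batches held 1 fish of every group. Whole brains hold every brain cell type, so a lower level of a transcript in fewer cells of a type and less of it per cell cannot be told apart.

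Mitochondria translate the few proteins of their own genome on a dedicated ribosome, whose RNA comes from that genome and whose proteins are all encoded in the nucleus, made on cytosolic ribosomes and imported. Most mrpl genes encode large subunit proteins and most mrps genes small subunit proteins, and counts by subunit below go by name alone. Import runs through the translocase of the outer membrane, the tomm proteins, and the translocases of the inner membrane, the timm proteins, with small timm chaperones in the space between the membranes. The slc25a carriers sit in the inner membrane and exchange phosphate, nucleotides, amino acids and other metabolites, a traffic on which the high energy demand of brain tissue rests.

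The input libraries held between 10073251 and 23594320 counts and the IP libraries between 1872019 and 11186928. Between 30469 and 34760 loci had a count in an input library and between 3714 and 10466 in an IP library. The IP libraries of MC fish 9 and 10 stood apart, with 3714 and 4607 loci, 13 and 15 members with a count and the fewest counts of all 16 libraries. Of the marker genes listed for neurons, 5 of 16 matched an annotated locus. In the inputs of this brain tissue they summed to between 2880 and 7359 nuclear CPM (counts per 1000000 counts on loci outside the mitochondrial genome). Of the matched markers of radial glia and astrocytes, slc6a11, slc1a2, fabp7 and s100b had at least 1215, 4370, 3472 and 31387 counts in each input. The glial water channel aqp4 was at 0 in all 8 inputs. No listed gene of red blood cells or skeletal muscle matched a locus.

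Most mitochondrial ribosome genes were higher in PC than in MC total RNA, and so were part of the import genes, while the carriers were mixed. Of 63 mitochondrial ribosome genes, 44 rose and none fell in PC against MC, at an adjusted p under 0.05 in edgeR's quasi-likelihood test over all loci. Of 17 import genes 7 rose, and of 21 carriers tested 2 rose, again with none falling. Over all 28742 loci tested, 8.16% were called higher in PC and 2.28% lower. Of the 16911 annotated loci among them, the class that holds all members, 1816 were called higher and 332 lower. DESeq2 called 61 members higher and 1 lower, with 20.3% of all loci called in either direction, and the count of members at an unadjusted p under 0.05 in edgeR was 75 of 101, against 25.5% of all loci.

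The median log2 difference between PC and MC was 1.60 for the mitochondrial ribosome genes, with 61 of 63 above 0. It was 1.38 for the import genes, all 17 above 0, and 0.27 for the carriers, 13 above and 8 below 0. The median of all tested loci was 0.03 and that of the annotated loci among them 0.32. In 44 mitochondrial ribosome genes, 10 import genes and 2 carriers, all 4 PC inputs lay above all 4 MC inputs, a separation found in 12.7% of all tested loci. The opposite separation was found in 8.01% of all loci and in no member. By name, both ribosomal subunits were represented, as 28 of 37 mrpl genes and 16 of 26 mrps genes rose, with medians of 1.71 and 1.495.

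**Figure D1:**
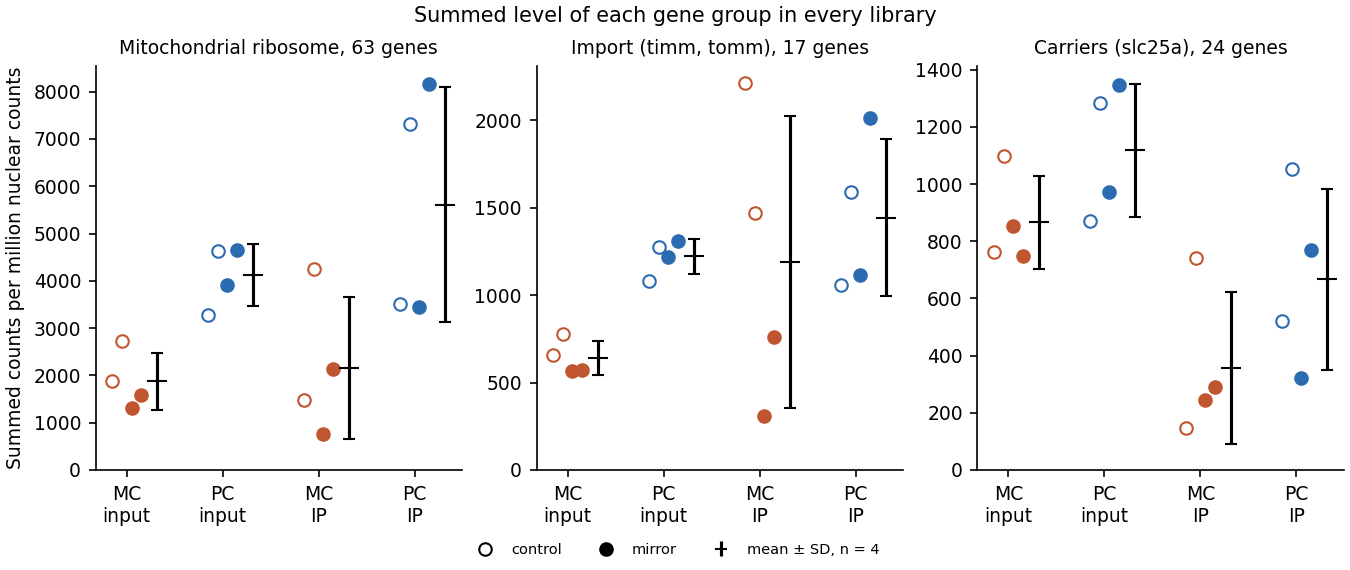
Summed level of each gene group in nuclear CPM, counts per 1000000 nuclear counts (vertical axis, starting at 0) in every library, for MC and PC, input and IP; open points are control fish, filled points mirror fish, and bars give the mean ± SD of 4 fish. The 4 PC inputs lie above the 4 MC inputs for the ribosome genes (3284 to 4650 against 1311 to 2718) and the import genes (1083 to 1311 against 563 to 775), while the carriers overlap (871 to 1345 against 750 to 1099).

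Summed over the group, the mitochondrial ribosome genes took 1884 and 2718 nuclear CPM in the inputs of MC control fish 10 and 22, and 1311 and 1576 in those of MC mirror fish 9 and 21. The PC sums were 3284 for control fish 11, 4624 for control fish 24, 3906 for mirror fish 12 and 4650 for mirror fish 23. The 2 species did not overlap, and both MC mirror fish lay below both MC controls. The import genes gave 641 ± 98.6 (SD, n = 4) in MC and 1221 ± 100.1 (SD, n = 4) in PC, also without overlap. The carriers gave 866 ± 162 (SD, n = 4) and 1118 ± 231 (SD, n = 4), with overlap. Without slc25a3, which held more counts than any other carrier, they summed to between 392 and 466 in MC and between 336 and 412 in PC, so that the higher sum of the PC carriers was that of slc25a3.

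Among large subunit genes, mrpl34 had a scaled CPM (counts per 1000000, scaled by the trimmed mean of M-values over the 8 inputs) of 12.8 and 22.9 in the MC controls, 7.34 and 10.8 in the MC mirror fish, 50.9 and 69.7 in the PC controls and 48.4 and 84.3 in the PC mirror fish. Every PC fish lay above every MC fish, and the log2 difference was 2.32 ± 0.22 (SE; adjusted p = 0.000803). The gene mrpl21 stood at 7.27 and 7.88 in the MC controls, 2.39 and 2.00 in the MC mirror fish, 26.5 and 30.7 in the PC controls and 25.2 and 31.2 in the PC mirror fish, a log2 difference of 2.79 ± 0.28 (adjusted p = 0.000884). The PC values were tightly grouped, and the MC mirror fish were the lowest.

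The gene mrpl41 stood at 53.2 and 90.5 CPM in the MC controls, 29.2 and 41.0 in the MC mirror fish, 142 and 228 in the PC controls and 137 and 261 in the PC mirror fish (log2 difference 1.91 ± 0.19, adjusted p = 0.000855). For mrpl11 the values were 44.8 and 85.4, 26.1 and 61.0, 111 and 222, and 145 and 301 in the same order (1.86 ± 0.18, adjusted p = 0.000855). In both genes the species did not overlap, while mirror and control fish of PC did. The locus of mrpl11 spans 62030 bp and shares 6535 bp with LOC101476505 on the opposite strand, and whether counting used the strand is not given in the sources used here, so its counts are uncertain. The gene mrpl33 had 51.1 and 115 CPM in the MC controls, 35.3 and 37.4 in the MC mirror fish, 146 and 213 in the PC controls and 155 and 236 in the PC mirror fish (1.77 ± 0.22, adjusted p = 0.00178); 272 bp of it overlap rbks on the opposite strand.

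Among small subunit genes, mrps33 had 22.5 and 45.9 CPM in the MC controls, 15.7 and 16.5 in the MC mirror fish, 91.7 and 115 in the PC controls and 86.9 and 157 in the PC mirror fish (log2 difference 2.25 ± 0.24, adjusted p = 0.00101). The species did not overlap. For mrps21 the values were 91.3 and 140.1, 41.5 and 111, 170 and 235, and 188 and 351 in that order (1.36 ± 0.21, adjusted p = 0.00425), again without overlap. For mrps12, a protein of the decoding site, they were 48.7 and 126, 28.1 and 41.6, 199 and 259, and 213 and 85.0 (1.80 ± 0.39, adjusted p = 0.0204). Here PC mirror fish 23 lay below MC control fish 22, so the species overlapped. The mrps12 locus shares 1621 of its 2287 bp with LOC101468774 on the opposite strand, so its counts are uncertain as well.

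The 19 mitochondrial ribosome genes that were not called include mrps2 (-0.65) and mrpl20 (-0.47), the only ones with a log2 difference below 0, and mrps27 (0.08). The other 16 had log2 differences between 0.61 and 2.67. The 44 that rose lay between 0.93 and 5.67 on the log2 scale. The highest of these, 5.67 ± 1.19 for mrpl58, a peptidyl-tRNA hydrolase built into the large subunit, rests on low counts, with both MC mirror inputs at 0 and the PC inputs at 4.31 to 6.61 CPM.

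Among the import genes, the clearest case was tomm5, a small subunit of the outer membrane translocase. Its scaled CPM was 40.2 and 56.0 in the MC controls, 18.3 and 28.1 in the MC mirror fish, 125 and 140.3 in the PC controls and 146 and 187 in the PC mirror fish. The PC inputs all lay above the MC inputs, with a log2 difference of 2.17 ± 0.20 (SE; adjusted p = 0.000686). For tomm7, another small subunit of the same complex, the values were 79.0 and 115, 74.2 and 116, 167 and 190, and 187 and 223 in the same order (1.02 ± 0.18, adjusted p = 0.00887). The species did not overlap here either, while mirror and control fish of each species did.

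The receptor tomm22 and the channel tomm40 were not called. The values of tomm22 were 42.0 and 21.01 in the MC controls, 27.4 and 21.5 in the MC mirror fish, 48.4 and 18.7 in the PC controls and 15.8 and 51.8 in the PC mirror fish (log2 difference 0.32 ± 0.45, adjusted p = 0.702). For tomm40 the log2 difference was 1.02 ± 0.55 (adjusted p = 0.279), with 2 of 4 PC fish above every MC fish, and it ran from 0.32 without PC mirror fish 23 to 1.69 without MC control fish 10. The 2 genes thus overlapped between the species where tomm5 and tomm7 did not.

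Of the small timm chaperones of the intermembrane space, 3 were called. The gene timm8b had 50.1 and 114 CPM in the MC controls, 37.7 and 58.1 in the MC mirror fish, 137 and 229 in the PC controls and 166 and 324 in the PC mirror fish (log2 difference 1.76 ± 0.19, adjusted p = 0.00107). For timm13 the values were 19.1 and 52.6, 27.0 and 22.3, 114 and 136, and 80.2 and 169 (2.06 ± 0.30, adjusted p = 0.00352). For timm10 they were 46.3 and 70.8, 48.3 and 37.4, 117 and 142, and 126 and 136 (1.38 ± 0.22, adjusted p = 0.00508). None of the 3 overlapped between the species.

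The channel components of the inner membrane translocases differed among themselves. For timm23, the channel of the translocase for proteins with a presequence, the log2 difference was 0.33 ± 0.24 (adjusted p = 0.410) with 30.5 ± 7.46 CPM in MC and 38.1 ± 2.74 in PC (SD, n = 4). Its partner timm17b rose from 18.8 ± 4.50 in MC to 57.1 ± 17.3 in PC (SD, n = 4; log2 difference 1.58 ± 0.24, adjusted p = 0.00385). The receptor timm50 of the same translocase stood at 6.01 and 5.07 CPM in the MC controls, 0.878 and 0 in the MC mirror fish and 7.15 to 12.1 in PC (2.68 ± 0.75, adjusted p = 0.0559); it did not pass in edgeR but passed in DESeq2 (adjusted p = 0.00231) and under 4 of the 19 other alternatives. Its size rests on single fish, at 5.35 without MC mirror fish 9 and 2.09 without MC mirror fish 21. The small chaperone timm10b was at 11.8 ± 3.84 in MC and 20.98 ± 5.54 in PC (SD, n = 4; 0.83 ± 0.27, adjusted p = 0.0926). The paralogue timm17a stood at 14.0 ± 2.95 in MC and 22.5 ± 5.14 in PC (SD, n = 4) and was not called (0.68 ± 0.29, adjusted p = 0.187). The carrier translocase channel timm22 was counted at 0.791 and 2.45 CPM in the MC controls, at 0 in both MC mirror fish, and at 4.73 to 10.4 in the 4 PC fish. It was called (adjusted p = 0.00529), but with 2 MC libraries at 0 its fitted size depends on the model, and 1134 bp of its locus overlap specc1 on the opposite strand. The rule also takes in tomm34, a cytosolic co-chaperone, and timmdc1, a complex I assembly factor, neither of which was called.

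Of the carriers, the phosphate carrier slc25a3 had 230 and 456 CPM in the MC controls, 229.7 and 233 in the MC mirror fish, 439 and 765 in the PC controls and 422 and 1053 in the PC mirror fish (log2 difference 1.17 ± 0.22, adjusted p = 0.0108). PC control fish 11 and PC mirror fish 12 lay below MC control fish 22, so the species overlapped. The slc25a3 locus shares 200 bp with LOC111500749 on the same strand. The oxoglutarate carrier slc25a11 had 39.1 and 85.7 in the MC controls, 26.6 and 55.1 in the MC mirror fish, 65.9 and 94.1 in the PC controls and 75.4 and 121.6 in the PC mirror fish (0.88 ± 0.21, adjusted p = 0.0285), also with overlap. Both calls were lost without the batch term, where the log2 differences were 1.24 (edgeR, adjusted p = 0.0732) and 0.81 (0.179), and with scaling by library size alone, where they were 0.81 and 0.53. That of slc25a3 was also lost without MC fish 10 or any of the PC fish 11, 23 and 24 (0.92 to 1.17), and that of slc25a11 also without MC fish 10 or 22 or any of the 4 PC fish (0.77 to 0.98). Of the genes named above, mrps21 lost its call without the batch term (1.32), tomm7 with scaling by library size alone (0.67) and without PC fish 12 (0.97), and mrps12 with that scaling (1.49) and without MC fish 10, PC fish 11 or PC fish 24 (1.43 to 1.83).

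The mitoferrin slc25a28, an iron carrier, did not overlap between the species, at 46.3 to 59.0 CPM in MC and 71.1 to 89.3 in PC, but was not called in edgeR (0.63 ± 0.21, adjusted p = 0.0947); it was called by DESeq2 (adjusted p = 0.0264). Lower in PC were slc25a46, an outer membrane member of the family that acts in mitochondrial dynamics (-0.96 ± 0.35, adjusted p = 0.127), and slc25a14, a brain uncoupling protein (-0.60 ± 0.29, adjusted p = 0.231); neither passed in edgeR. The gene slc25a46 passed under 3 of 20 alternatives: DESeq2 (adjusted p = 0.0352), no low-count filter (edgeR, 0.00614), and without MC mirror fish 21 (edgeR, 0.0251). With a fish left out its value ran from -1.39 (PC control fish 24) to -0.52 (MC mirror fish 9). For slc25a4, an ADP/ATP carrier, the inputs ran from 1.18 to 46.6 CPM in MC and from 0.498 to 12.4 in PC (-0.97 ± 0.85, adjusted p = 0.507). The 2 ranges overlapped, and the value rests on single fish, at -2.95 without PC mirror fish 23 and 0.11 without MC control fish 10. The pyrimidine nucleotide carrier slc25a33 had 23.4 ± 14.2 CPM in MC and 20.03 ± 2.63 in PC (SD, n = 4; -0.07 ± 0.32, adjusted p = 0.924). The aspartate/glutamate carrier slc25a13 was near the floor, at 0 to 1.90 CPM in MC and 0 to 6.25 in PC (adjusted p = 0.702).

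**Figure D2:**
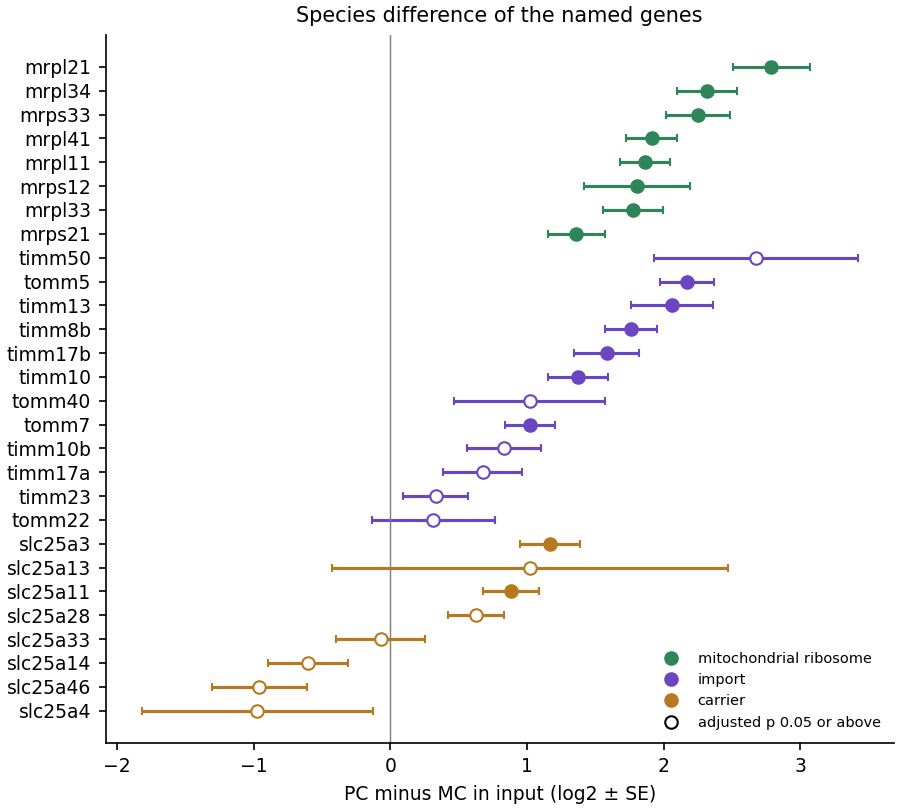
Log2 difference between PC and MC in input (horizontal axis, points, with SE as bars) for 28 named genes, grouped by colour; filled points have an adjusted p under 0.05. The ribosome genes lie between 1.36 and 2.79, the import genes between 0.32 and 2.68 and the carriers between -0.97 and 1.17.

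How many members were called depended on the fish and on the fit, while the ribosome genes stayed above 0 in their median. Within the controls, 2 members were called, mrpl34 (1.80) and mrpl15 (1.73), both of the mitochondrial ribosome, with 0.762% of all loci higher. All other genes called above lost their calls there, among them tomm5 (1.48), mrpl11 (1.34) and timm8b (1.22). The ribosome genes had a median of 1.05 within the controls, with 36 of 63 at an unadjusted p under 0.05 in edgeR, against 11.5% of all loci. Within the mirror fish, 49 members were called with 5.5% of all loci higher, and the ribosome genes had a median of 2.12. The PC mirror fish are those with the deepest inputs, 22058698 and 23594320 counts against 10456641 and 10904974 in the MC mirror fish. Batch a alone gave 26 members called with 3.81% of all loci called in either direction and a ribosome median of 1.46, and batch b alone gave 0 members called, 0.146% of all loci and a ribosome median of 1.65. When the IP libraries shared the fit, no member and no locus was called in edgeR, 2 members had an unadjusted p under 0.05, and the ribosome median was 1.30.

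Several measures moved with the species. Of all annotated loci tested, those that span up to 2000 bp had a median PC minus MC difference of 1.49, those of 2000 to 4000 bp 1.02, those of 4000 to 8000 bp 0.63, those of 8000 to 16000 bp 0.27, those of 16000 to 32000 bp 0.05 and longer ones -0.12. The median span was 3550 bp for the mitochondrial ribosome genes, 4168 bp for the import genes, 6181.5 bp for the carriers and 10417 bp for all annotated loci tested, so the members lie towards the short end. From the shortest band to the longest, 29.8%, 24.9%, 15.1%, 7.38%, 3.25% and 2.04% of annotated loci were called higher in PC. The members called higher were 10 of 12, 24 of 34, 12 of 32, 5 of 14, 0 of 3 and 2 of 6. In the same order of bands the ribosome genes had medians of 1.83, 1.54, 1.49, 1.75, 1.21 and 1.13, over 9, 28, 15, 7, 1 and 3 genes. Of the ribosome genes 55 of 63 lay above the median of their band, as did 14 of 17 import genes and 9 of 21 carriers. The Spearman correlation of the difference with span was -0.26 over the 101 members and -0.32 over 16911 annotated loci, both across genes that share the same 8 libraries.

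**Figure D3:**
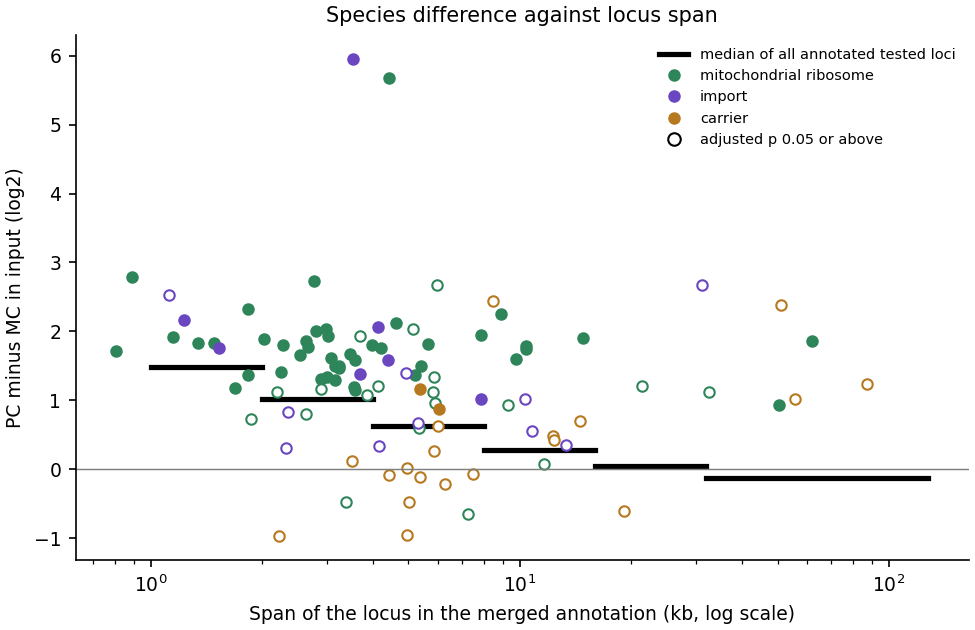
Log2 difference between PC and MC in input (vertical axis) against the span of the locus in kb (horizontal axis, log scale) for 101 members, coloured by group and filled where the adjusted p is under 0.05; black lines are the medians of all annotated tested loci in 6 bands of span. The black lines fall from 1.49 to -0.12, and the ribosome genes have medians of 1.13 to 1.83 in the same bands, the last 2 of which hold 1 and 3 of them.

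Depth also moved with the species, with 10073251 to 10904974 counts in the MC inputs and 10940859 to 23594320 in the PC inputs. The share of counts on loci inside introns was 1.22% to 2.11% in the MC inputs and 0.566% to 0.767% in the PC inputs, without overlap, and on run-on fragments next to genes 1.63% to 2.10% and 0.808% to 1.29%. The neuron marker sum was 5536 to 7359 nuclear CPM in MC and 2880 to 5006 in PC, and that of radial glia and astrocytes (5 of 11 genes matched) was 6238 to 7484 and 9169 to 13984. Oligodendrocyte markers (3 of 11 matched) gave 1102 to 1668 in MC and 207 to 934 in PC, and endothelial markers 72.5 to 117 and 39.0 to 58.9, both without overlap. Microglial markers (5 of 10 matched) overlapped, at 678 to 964 in MC and 593 to 1013 in PC. The neuron and radial glia sums weigh towards snap25 and s100b, with at least 25537 and 31387 counts in each input. Gene by gene, 0 of 5 neuron markers were called between the species (median log2 difference -0.21). Of 4 tested radial glia and astrocyte markers 2 were called higher in PC (0.46), of 3 oligodendrocyte markers 1 lower (-0.90), of 5 endothelial markers 0 (-0.87) and of 5 microglial markers 1 higher (0.15). The part of span, depth, intron counts and cell type markers in the species difference was not tested.

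Most nuclear respiratory chain and cytosolic ribosomal protein genes were also higher in PC, while in 3 other lists of mitochondrial genes few genes were called. Of 45 nuclear respiratory chain genes 40 rose with a median of 1.72. Of 61 cytosolic ribosomal protein genes 52 rose with a median of 0.83. Both sets were picked by the start of the gene name alone, so other genes can be among them. The 3 other lists stood closer to the 8.16% of all loci called higher. By their medians, the lists of translation and import genes lay above the 0.32 of all annotated loci tested, and that of transporters and channels below it. Of 32 tested genes of mitochondrial translation and ribosome assembly outside the mrp names, 4 rose and none fell, with a median of 0.92. The 4 were tsfm, an elongation factor (1.76), aurkaip1 (1.19), gadd45gip1 (0.89) and rmnd1. The last was counted at 0 in all 4 MC inputs and at 1.34 to 6.53 CPM in PC. Of 18 tested import genes under other names 2 rose, romo1 (1.45) and dnajc19 (1.17), which is a cofactor of the import motor, with a list median of 0.74. Of 19 tested transporters and channels outside the slc25a names 3 rose, sfxn4 (2.32), the pyruvate carrier subunit mpc2 (0.84) and tmem65 (0.94), with a list median of 0.17.

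No member was called for the mirror in total RNA. In edgeR 0 of 101 members passed, 10 had an unadjusted p under 0.05, against 4.07% of all loci, and DESeq2 called none. Without the low-count filter mrps12 was called (-0.93, edgeR, adjusted p = 0.0123). Leaving out a fish gave no call on the same loci. When the filter was run again it let in 37060 to 40991 loci, and a few members were then called in some of these fits. Each of them has a group with a single fish. Of all 28742 loci 0.0104% were called. The median log2 difference between mirror and control fish was -0.23 for the mitochondrial ribosome genes, with 50 of 63 below 0, -0.20 for the import genes, -0.06 for the carriers and -0.08 for all loci.

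The medians had opposite signs in the 2 species. Within MC, 59 of 63 mitochondrial ribosome genes were below 0 in mirror against control fish, with a median of -0.71 against -0.09 for all loci. No member was called in edgeR, 28 members had an unadjusted p under 0.05, against 6.47% of all loci, and 0.0522% of all loci were called. In 32 ribosome genes, 6 import genes and 4 carriers both MC mirror inputs lay below both MC controls, which 18.5% of all loci did. Both MC mirror inputs also had a higher share of counts on loci inside introns (2.11% and 1.86%) than both MC controls (1.60% and 1.22%), and a higher share from the mitochondrial genome (30.6% and 29.4% against 26.2% and 21.03%). Their part in the lower ribosome genes was not tested. Within PC, 47 of 63 ribosome genes were above 0, with a median of 0.18 against 0.01 for all loci. No member was called there, none had an unadjusted p under 0.05, against 1.45% of all loci, and 0% of all loci were called. In 8 ribosome genes, 2 import genes and 3 carriers both PC mirror inputs lay above both controls, which 13.1% of all loci did.

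The species difference of the mirror effect in input had a median of 0.97 over the ribosome genes, 60 of 63 above 0, against 0.14 over all loci. In edgeR 0 members were called, 27 had an unadjusted p under 0.05, against 5.02% of all loci, and 0.0104% of all loci were called. No member's mirror effect thus passed a test of its difference between the species.

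The smallest p among the members belonged to mrps7, of the small subunit, whose scaled CPM was 14.2 and 24.2 in the MC controls, 3.11 and 4.19 in the MC mirror fish, 18.9 and 31.96 in the PC controls and 11.3 and 39.0 in the PC mirror fish. Both MC mirror fish were lower than both MC controls, and the PC groups overlapped. The log2 difference over both species was -1.26 ± 0.30 (adjusted p = 0.774). For mrpl21, with values given above, it was -0.90 ± 0.27 (adjusted p = 1.00). For mrpl9 the values were 6.09 and 7.97 in the MC controls, 0.638 and 1.91 in the MC mirror fish, 14.2 and 17.9 in the PC controls and 18.5 and 28.1 in the PC mirror fish (-1.03 ± 0.35, adjusted p = 1.00), below both controls in MC and above both in PC. The second smallest p belonged to timm22, the smallest of any import gene (unadjusted p = 0.00537 in edgeR, adjusted p = 1.00); both MC mirror fish were at 0, so its fitted -3.41 ± 0.89 depends on the model, as does the -3.63 ± 1.15 of mrpl58 (adjusted p = 1.00). Of the other import genes, timm50 stood at -1.60 ± 0.72, tomm5 at -0.37 ± 0.19 and timmdc1 at -0.64 ± 0.43 (each adjusted p = 1.00 in edgeR). For the carriers, the smallest p belonged to slc25a26, the carrier of S-adenosylmethionine, at -1.16 ± 0.94 (adjusted p = 1.00). It was followed by slc25a4 (1.15 ± 1.03), slc25a13 (-1.69 ± 1.89) and slc25a11 (-0.16 ± 0.20), all at an adjusted p of 1.00 in edgeR. Several of these mirror values rest on single fish: with a fish left out slc25a26 ran from -4.56 to -0.49, slc25a13 from -3.98 to -0.27, slc25a4 from -0.27 to 2.27, timm50 from -4.29 to -1.03 and timmdc1 from -1.35 to -0.22.

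In the IP, most members had few counts or none. Of 104 members, 5 had a count in all 8 IP libraries (slc25a3, mrpl24, mrps12, mrps21 and mrps33) and 19 in none, while 88 had a count in all 8 inputs. The 19 were 14 carriers, timm22, tomm40, mrpl44, mrps22 and mrps9. The median number of IP libraries with a count was 4 for the ribosome genes, 3 for the import genes and 0 for the carriers. By counting error alone, a count of 0 in all 8 IP libraries allows a summed level of up to 0.0573 CPM (3 counts over the group). On that footing mrpl44 was at least 201-fold lower in the summed IP than in the summed input, slc25a4 at least 189-fold and tomm40 at least 150.2-fold. The spread between fish is not in these bounds, and it was large: timm50 had 1863 counts in the IP of MC fish 10 and 0 in that of MC fish 22. Of annotated loci at 10 to 30 CPM in input 8.51% had a count in no IP library, and of those at 3 to 10 CPM 33.1%. The fold values therefore do not bound the true difference.

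Detection followed the level in input. Annotated loci at 30 to 100 CPM in input had a count in a mean of 5.11 of 8 IP libraries, and the 31 members there in 5.13. At 10 to 30 CPM the annotated loci had 2.91, the 27 ribosome genes 2.89, the 4 import genes 2.5 and the 5 carriers 1.20. At 3 to 10 CPM the annotated loci had 1.38 and the 7 carriers 0.143, with 6 of the 7 in no IP library against 33.1% of the annotated loci. No test was made of these differences.

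**Figure D4:**
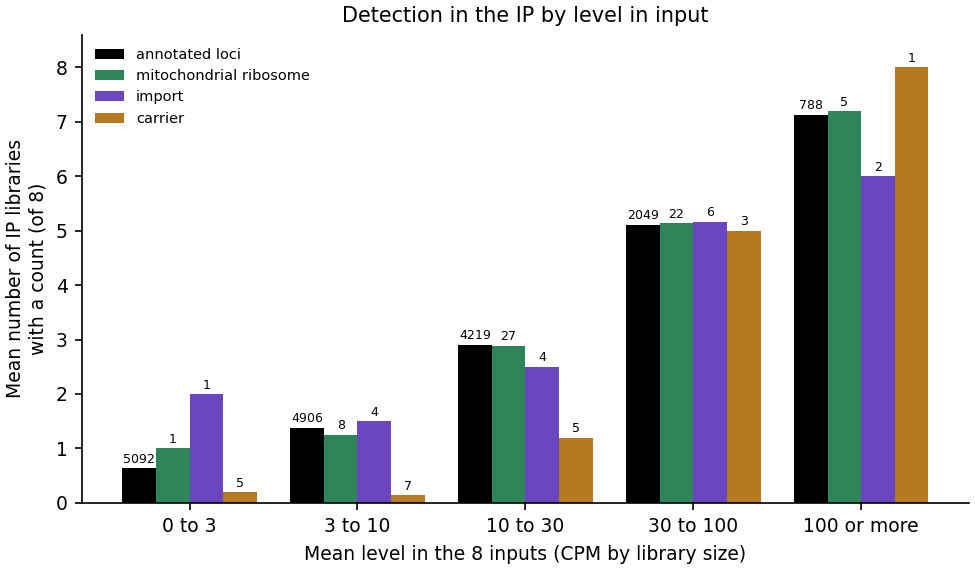
Mean number of IP libraries with at least 1 count, of 8 (vertical axis), for loci grouped by their mean CPM in the 8 inputs (horizontal axis), with the number of loci over each bar; black bars are all annotated loci. The ribosome genes stay close to the black bars from 10 CPM upwards, and the import genes from 10 to 100 CPM. At 100 CPM or more the 2 import genes lie at 6 against 7.13. The carriers lie below the black bars at 3 to 10 CPM (0.143 against 1.38) and at 10 to 30 CPM (1.20 against 2.91).

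Summed over the group, the ribosome genes were higher in IP than in input in 5 of 8 fish and lower in 3, on the nuclear CPM scale. The IP sums were 1485 and 4240 in the MC controls, 760 and 2143 in the MC mirror fish, 3517 and 7326 in the PC controls and 3443 and 8162 in the PC mirror fish. Few genes carried much of some sums: in the IP of PC mirror fish 23, mrps18c, mrps21 and mrps12 had 15775, 15538 and 12376 counts. Gene by gene, IP minus input was below 0 in 59 of 63 ribosome genes and above 0 in 4, in the fit over all 29597 loci that passed the filter. Of all these loci 27887 were below 0 and 1710 above, so the ribosome genes did not stand apart in this count. The carriers were lower in IP than in input in 8 of 8 fish, by 0.28 to 2.37 on the log2 scale; without slc25a3 they were lower in 7 and higher in 1, at -2.41 to 0.19. The import genes were higher in 5 and lower in 3, and in the IP of PC mirror fish 23 timm10 alone had 12361 counts. In the same libraries the neuron markers were also lower in IP than in input in 8 of 8 fish, by 0.49 to 2.67, those of radial glia and astrocytes in 8 of 8 by 1.15 to 2.59, and those of oligodendrocytes and of microglia in 8 of 8. Endothelial markers were lower in 7 of 8 fish and higher in 1. Counts from the mitochondrial genome took 20.7% to 30.6% of the inputs and 2.94% to 14.3% of the IPs, and the nuclear CPM scale leaves them out. The part of the cell types in these sums was not tested.

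Because of these zeros, IP was set against input among the 856 loci whose mean level over all 16 libraries exceeded 7 on edgeR's log2 CPM scale, which 10 members passed: 5 ribosome genes, 4 import genes and slc25a3. Of the 10, 1 rose and 1 fell, while 10.6% of the 856 loci were called higher and 12.6% lower. Without MC mirror fish 21, which leaves 1 fish in its group, tomm5 stood at -2.22 and mrpl11 at -3.06. Without MC control fish 22 mrpl33 stood at -2.84. The median log2 difference between IP and input was 0.12 over the 10 members and -0.31 over the 856 loci. Since the limit includes the IP libraries, loci absent from most IPs were left out, and high IP counts could bring a locus in. For example, mrps18c passed at a mean of 86.4 CPM in input (by library size), while mrpl41 at 113 CPM did not. The shares and medians among these loci are thus set in part by the limit, and the 10 stand for no other member.

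The phosphate carrier slc25a3 fell. On the scale of these loci its CPM in input and IP was 553 and 102 in MC fish 10, 745 and 236 in MC fish 22, 629 and 74.7 in MC fish 9, and 463 and 178 in MC fish 21. In PC it was 580.03 and 482 in fish 11, 859 and 752 in fish 24, 569 and 246 in fish 12, and 984 and 423 in fish 23. The IP was lower in 8 of 8 fish, and the log2 difference was -1.44 ± 0.25 (adjusted p = 0.00341). With the fish as a replicate block, which pairs the 2 libraries of an animal, it was also called in edgeR, and by limma on the per-fish differences no member and 1 of 856 loci was called.

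The small subunit gene mrps12 rose. In MC its input and IP values were 117 and 208 in fish 10, 206 and 478 in fish 22, 76.9 and 402 in fish 9, and 82.7 and 149.9 in fish 21. In PC they were 262 and 472 in fish 11, 291 and 612 in fish 24, 287 and 362 in fish 12, and 79.5 and 1147 in fish 23. The IP was higher in 8 of 8 fish, and the log2 difference was 1.46 ± 0.45 (adjusted p = 0.0425). The counts are uncertain here too, as 1621 bp of the locus overlap LOC101468774 on the opposite strand. The call was lost with the fish as a replicate block, in each batch alone and without any of the MC fish 9, 10 and 22 or the PC fish 11, 23 and 24, with differences between 1.10 and 1.93 over all alternatives.

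**Figure D5:**
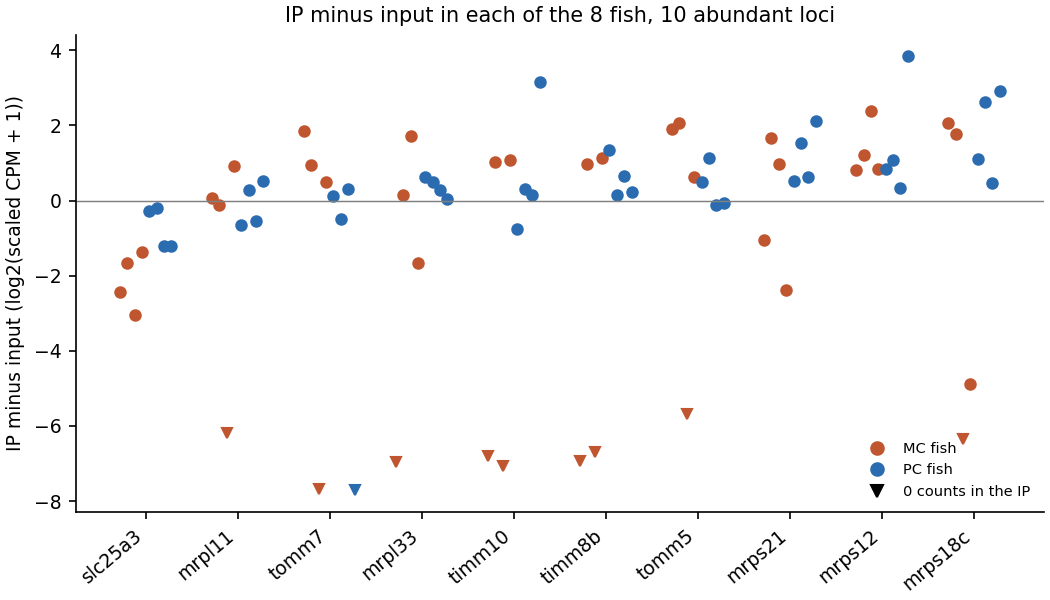
IP minus input as log2(scaled CPM + 1) (vertical axis) for the 10 abundant members in each of the 8 fish, coloured by species; triangles are fish with 0 counts in the IP, whose depth on the axis is set by the added 1. Every point of slc25a3 lies below 0 and every point of mrps12 above 0, and 7 of the other 8 genes have at least 1 fish at 0 counts.

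The other 8 were not called, and 7 of them were at 0 counts in 1 or 2 IP libraries. The gene mrps18c had IP values of 341 and 368 in the MC controls, 0 and 1.42 in the MC mirror fish, 252 and 1076 in the PC controls and 242 and 1463 in the PC mirror fish, against 71.0 to 194 in the 8 inputs. Its IP was higher in 6 of 8 fish, while the fitted log2 difference was -0.23 (edgeR, adjusted p = 0.937). The gene mrps21 had IP values of 104 and 731, 223 and 41.5, 321 and 766, and 389 and 1441 in the same order, higher than input in 6 of 8 fish (log2 difference 0.78 ± 0.50, adjusted p = 0.299), a value that was 0.15 without MC mirror fish 9 and 1.08 without MC control fish 10. For timm10, timm8b, tomm5 and tomm7 the IP was higher in 5, 6, 5 and 5 of 8 fish, with log2 differences of -0.32, 0.18, 0.54 and 0.06. For mrpl33 and mrpl11 it was higher in 6 and 4, with 0.29 and -0.14. In each of these 6 genes and in mrps18c the sign of the fitted difference turned under some of the alternatives.

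Over all 29597 loci that passed the filter, 60 of 101 members fell and mrps12 rose, with 57.4% of all loci lower and 0.331% higher. This fit did not pair the 2 libraries of a fish. The median log2 difference was -4.58 over the members and -4.97 over all loci; by group it was -4.16 for the ribosome genes, -3.66 for the import genes and -7.23 for the carriers. The 60 were 34 ribosome genes, 7 import genes and 19 of 21 carriers. The smallest p belonged to mrpl44, mrps22, mrps5 and mrps9, to tomm40, timm17b, tomm22 and timm21, and to slc25a21, slc25a32, slc25a40 and slc25a53, of which mrps5, timm17b, timm21, tomm22 and slc25a21 had counts in some IP libraries and the others in none. Leaving out a fish on the same loci took the 61 calls to between 32 (MC mirror fish 9) and 54, with 40 without MC control fish 10. The call of mrps12 was lost under 12 of 17 alternatives, with log2 differences of 0.92 to 1.82 over all 17. With the fish as a replicate block edgeR called 0 members, with 44 members at an unadjusted p under 0.05, and limma on the per-fish differences called 52 lower. The shares of all loci in these 2 fits are not given here, so the 2 counts do not set the members apart from other loci.

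For the species difference in IP enrichment, edgeR called 0 of 10 members, with 1.75% of the 856 loci called. In edgeR 2 members had an unadjusted p under 0.05, against 15.1% of the loci, DESeq2 called 2, against 11.8%. Leaving out MC mirror fish 21 gave 4 (mrps18c, mrpl11, tomm5 and slc25a3), MC control fish 22 gave 1 (mrps18c), and any other fish 0. The largest difference was that of mrps18c, whose IP enrichment was higher in PC by 4.30 ± 0.96 on the log2 scale (adjusted p = 0.0583), with both MC mirror fish near 0 in the IP. The limit on these loci includes the IP libraries, and mrps18c had a mean of 86.4 CPM in input (by library size). Its place among them thus rests in part on the IP counts compared here, so its value is set in part by the limit. For slc25a3 the mean IP minus input was -2.13 ± 0.77 (SD, n = 4) in MC and -0.72 ± 0.57 (SD, n = 4) in PC, a fitted difference of 1.44 ± 0.50 (SE; adjusted p = 0.204) that was 0.82 without MC mirror fish 9 and 1.75 without MC mirror fish 21.

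For the mirror effect on IP enrichment, edgeR called 0 of 10 members, with 0.234% of the 856 loci called. In edgeR 1 had an unadjusted p under 0.05, against 5.26% of the loci, and DESeq2 called 1, against 4.32%. Without MC mirror fish 21, which leaves 1 fish in its group, the effect was -7.22 for mrps18c, -6.02 for mrpl11 and -7.30 for tomm5. The fish left, MC mirror fish 9, had 0 counts of each in the IP. The member at an unadjusted p under 0.05 was again mrps18c, at -4.40 ± 0.97 (adjusted p = 0.196). The MC mirror fish carry that value, since the 2 PC mirror fish lay at 242 and 1463 against 252 and 1076 in the PC controls. Here too mrps18c is among the loci tested in part through its IP counts, so the value is set in part by the limit.

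The authors' deposited table for IP against input listed 41 members lower and 1 higher of 102 with an adjusted p. Of all 36392 loci with one in the authors' deposited table, 40.6% were lower and 1443 loci were higher. The member listed higher in the authors' deposited table was mrps12, at a log2 fold change of 1.68 (adjusted p = 0.00564), and slc25a3 was listed at -1.12 (adjusted p = 0.0431). For the mirror effect on IP against input, the authors' deposited table listed 4 members higher and 4 lower of 95, where 4.22% of all loci were called in either direction. For the species difference of that effect, the authors' deposited table listed 3 higher and 4 lower of 87, where 6.63% of all loci were called.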

How the data were processed

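For each assembled locus the authors deposited raw counts in 16 libraries, without normalization, and per the file headers each locus carries its match to an annotated gene. Per the submitters' processing notes cutadapt, HISAT2, StringTie and DESeq2 were used; their versions, their settings, the counting strand and the build were not given in the sources used here. Beside the counts lie 3 deposited DESeq2 tables of the authors, where a locus has its log2 fold change, p-value and adjusted p, and an adjusted p of 100 was read as missing.

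All other values were computed from the counts in R 4.3.3 with edgeR 4.0.16 (TMM scaling, filterByExpr with its defaults, 1 coefficient per group plus batch, two-sided quasi-likelihood F tests, Benjamini-Hochberg adjustment over all loci tested, threshold 0.05), and figures in Python with matplotlib 3.10.9. SE is the absolute log2 difference over the square root of F. Species and mirror comparisons in input used the 8 inputs, and IP comparisons all 16 libraries, on loci with an edgeR mean log2 CPM above 7 unless stated, with library sizes summed over those loci. The main IP fits had no term for the fish, so they did not pair the 2 libraries of an animal. The scripts were tested on simulated counts: when these were drawn with dispersions from the fitted trend, few loci were called falsely, but when drawn with each locus's own estimate, which was tried first, false calls in the species fit outnumbered true ones at the smaller change simulated, so that calls of small differences are less certain than the adjusted p states. A mean of each library's log2 CPM was tried before edgeR's mean log2 CPM and kept fewer loci. Depth was 10073251 to 23594320 counts per input and 1872019 to 11186928 per IP; floors of 3 counts cover counting error only.

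Alternatives were DESeq2 1.42.0, limma 3.58.1 on per-fish differences, the fish as a replicate block, RLE factors, other filters and limits, no batch term, each batch alone and leaving out each fish, on the loci of the full fit. Chosen after seeing the data were the species within each condition, the mirror effect within each species, library size alone, no mitochondrial genome loci, and class codes j and k. Input and IP of a fish come from the same animal per the labels, which pairs them; over 856 loci, deviations of input and IP around their group means correlated at 0.16 (MC controls), 0.05 (MC mirror fish), 0.51 (PC controls) and 0.22 (PC mirror fish). No 2 libraries were copies, since at least 6424 loci differed between any 2.

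Genes named are members called (where over 12, those with the smallest p), the 4 of each group with the smallest p, the most counted, and the known channels and carriers. The members, lists and rules were chosen with earlier results of these data known. Of 104 symbols, 94 are in the RefSeq gene table for M_conophoros_male_GT1.1, used only for that count. Symbols that no annotated locus carried, such as tomm20, tomm70, timm44 and slc25a5, were not analysed here.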

Additional observations from a re-analysis of the deposited data

Results flagged for a closer look

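The phosphate carrier slc25a3 had 1 MC input far from the other 3: 456 scaled CPM in control fish 22 against 229.7 to 233 in the others. The small chaperone timm10b had such a gap too, at 17.5 in MC mirror fish 21 against 9.33 to 10.7 in the other 3. They were the only such gaps among 68 groups of 4 fish examined (28 named genes and the 3 summed groups in each species, the sums also in IP). Chance gives such a gap in about 1 of 20 groups.

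Outside the members, 55 further loci carried a name of the same pattern but no full match to the annotated gene. Of these, 13 share exon junctions with the gene or contain it (class codes j and k), none of them under the name of a member, and together they took a mean of 563 CPM in the inputs, so that they are not a small remainder. Of the 13, 8 were called higher in PC in edgeR and 5 did not pass, with a median log2 difference of 1.13 over the 13. Of all 1104 tested loci of class code j, 24.1% were called higher, with a median of 0.60. Among the 13 were tomm6 (2.18 ± 0.23, adjusted p = 0.00107), mrpl52 (1.14 ± 0.19, adjusted p = 0.00677), mrpl13 (1.00 ± 0.23, adjusted p = 0.0273) and mrps36 (0.74 ± 0.20, adjusted p = 0.0477). With the 13 as members the count of genes higher in PC was 61.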

How the results depend on the processing

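In input, 53 members were called between the species, and calls were fewer in batch a alone (26), batch b alone (0), all 16 libraries in 1 fit (0) and within the controls (2), where the ribosome medians were 1.46, 1.65, 1.30 and 1.05 against 1.60. Leaving out a fish gave 38 to 66. No member was called for the mirror in input except without the low-count filter (1), nor with any fish left out (0). The fits with a fish left out used the loci of the full fit. With the filter run again, as was done first, 37060 to 42829 loci were let in and the counts of called members differed. In each fit with a fish left out 1 group holds a single fish, and the shares of all loci are not given here. Counts of called members with a fish left out thus do not set the members apart from other loci. Zeros limit every IP result, since most members had no count in several IP libraries; the part of depth in these zeros was not tested.

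IP against input among abundant loci had 2 called members, 0 in either batch by itself, 1 with the fish as a replicate block in edgeR and 0 with the replicate block by limma; leaving out a fish gave 1 to 4. Over all loci, 61 became 0 with the replicate block in edgeR and 52 by limma, and 32 to 54 with a fish left out. For the species difference of IP enrichment 0 became 1 at an adjusted p under 0.1, 2 with DESeq2, 1 with a mean log2 CPM above 6 and 0 to 4 with a fish left out; for the mirror effect on IP enrichment 0 became 1 with DESeq2 and 0 to 3 with a fish left out. The replicate block, which pairs the libraries of a fish, changed no call in these last 2 comparisons. The cause of these changes was not tested.

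Of 54 gene values named, each under 16 to 20 alternatives, the following turned sign. In the species difference, tomm22 went from 0.32 to -0.36 in batch a alone, -0.0456 with all 16 libraries, -0.0844 with library size alone, and -0.60 to 0.78 with a fish left out. In the same comparison timm23 went from 0.33 to -0.00562 with library size alone, slc25a4 from -0.97 to 1.08 within the controls and -2.95 to 0.11 with a fish left out, slc25a33 from -0.07 to 0.44 in batch a alone, 0.28 within the controls and -0.39 to 0.28 with a fish left out, and slc25a13 from 1.02 to -2.15 to 3.18 with a fish left out. For the mirror within PC, mrpl9 (-1.03 over both species) was 0.51, timm22 (-3.41) 0.51, tomm5 (-0.37) 0.32, timm50 (-1.60) 0.59, slc25a11 (-0.16) 0.27 and slc25a4 (1.15) -0.90; slc25a4 was also -1.18 in batch a alone and -0.27 to 2.27 with a fish left out, and slc25a13 (-1.69) 0.14 without the batch term and 0.86 in batch b alone. For IP against input among abundant loci, mrpl11 (-0.14) was 0.10 without the batch term, 0.45 in batch b alone, 0.0128 above a mean log2 CPM of 6, and -3.06 to 0.25 with a fish left out. In that comparison timm10 (-0.32) was 0.43 without the batch term, 1.59 in batch b alone and -3.14 to 0.44 with a fish left out. The gene mrps18c (-0.23) was 0.52 in batch a alone, 1.55 in batch b alone and -1.63 to 0.0805 with a fish left out. The gene timm8b (0.18) was -5.70 in batch a alone, -1.33 with the replicate block in edgeR, -3.85 by limma and -2.89 to 0.65 with a fish left out. The gene mrpl33 (0.29) was -0.14 in batch b alone, -0.83 with the block, -1.55 by limma and -2.84 to 0.45 with a fish left out. The gene tomm7 (0.06) was -0.74 in batch b alone, -1.97 with the block, -1.83 by limma and -3.39 to 0.39 with a fish left out. The gene tomm5 (0.54) was -0.0174 with the block, -1.32 by limma and -2.22 to 0.88 with a fish left out.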
